A study of Mus musculus with 12 samples.

Results

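Lens crystallins and the beaded filament gene Bfsp1 were followed in retinal cells of newborn mice. The 10 genes were taken by symbol, whatever their level: the alpha-crystallins Cryaa and Cryab, the beta-crystallins Cryba1, Cryba2, Cryba4, Crybb1, Crybb2 and Crybb3, the gamma-crystallin Crygs, and Bfsp1. All 10 were among the 38720 genes listed in each of 2 deposited tables, 1 for retinal ganglion cells (RGCs) and 1 for the other retinal cells (non-RGCs). Mutant pups (mKO) carried Math5-Cre and Ezh2 f/f, so that Cre, knocked in under the Math5 promoter, removed exons for the catalytic SET domain of Ezh2, a histone H3 lysine 27 methyltransferase, from the Math5 lineage and not from every retinal cell. Control pups were labelled wild type (WT). The study's RNA-seq methods also call them WT. Its general methods name littermates with both Ezh2 alleles floxed as the control unless stated otherwise, and its Results speak of littermate control RGCs. Controls with floxed alleles and no Cre thus cannot be told apart here from true wild types. All pups were of strain C57/BL6 and were taken at P0. Retinas were dissociated with papain, cells held by magnetic beads against CD90 (Thy-1) were called RGCs, and the remaining cells were the non-RGCs. Each of the 4 groups had 3 libraries from separate RNA extractions. The sources used here do not say whether the extractions came from separate pups or pools, so p-values measure the spread between these libraries.

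Crystallins are the abundant soluble proteins of the lens, where they keep the fibre cell cytoplasm transparent. The alpha-crystallins are small heat shock proteins that hold unfolding proteins in solution, and the beta- and gamma-crystallins are structural proteins built from repeated Greek key folds. Bfsp1 encodes filensin, an intermediate filament protein of the fibre cell beaded filament. Outside the lens, Cryab is known from muscle, glia and stressed cells, and several crystallin transcripts have been described in the retina, where a dissected sample can also carry lens tissue.

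Whole reads of each library were recovered from the deposited group means, and within a group the library with the most reads is called A and the one with the fewest C. These letters are no replicate numbers and pair nothing between groups. Libraries held 7139633 to 13014004 reads on genes, so that 3 reads, the limit that a count of 0 allows, stood for 0.231 to 0.42 RPM (reads per 1000000 reads on genes). RGC markers were higher in the RGC fraction for 12 of 12 genes, by 1.30- to 36.9-fold in mean RPM. The targeted gene gave no check of the labels. Counts cover all exons of Ezh2, also those outside the loxP sites. The paper also states that Math5-Cre deletes Ezh2 in only part of the RGCs. The part of either in the Ezh2 values was not tested. In RGCs Ezh2 stood at 1354, 1476 and 1443 normalized reads (reads divided by the size factor of the library) in mKO and at 1190, 1206 and 1678 in WT. The change was 0.087 on the log2 scale (SE 0.133, limma adjusted p = 0.645); without WT RGC library C it was 0.25, with a limma adjusted p of 0.00441, in the direction of more Ezh2 reads in mKO.

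Promoters of 9 of the 10 genes were in the RefSeq table used here (GRCm38.p6, 250 bases before to 50 bases after the start); the gene without an entry was Cryab. TGCTGA, a piece of the recognition element of Maf factors, which drive crystallin genes in lens fibres, was present on either strand in 8 of these 9 promoters, against 19.5% of 32851 mouse promoters. The exception was Crybb2. TATAAA, the TATA box, was present in 4 of 9 (13.6% of all promoters), AACAAT, a Sox core, in 2 of 9 (10.7%), and GAANNTTC, the core of a heat shock element, in 0 of 9 (7.86%). A match is a string of letters and no shown site of binding. Below are the promoters of Crybb1 and Cryba4, a divergent pair whose levels stood apart between fractions, of Cryaa, whose reads came mostly from 1 library, and of Bfsp1, the member with the most reads. Each runs 5′ to 3′ on the strand of the gene, and capitals mark matches to the Maf, Sox and TATA motifs on either strand.
Crybb1: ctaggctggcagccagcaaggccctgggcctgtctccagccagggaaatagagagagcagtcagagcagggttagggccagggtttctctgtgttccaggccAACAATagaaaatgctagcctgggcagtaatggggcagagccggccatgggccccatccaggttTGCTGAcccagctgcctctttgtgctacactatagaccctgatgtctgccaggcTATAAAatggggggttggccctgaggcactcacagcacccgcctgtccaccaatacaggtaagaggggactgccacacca
Cryba4: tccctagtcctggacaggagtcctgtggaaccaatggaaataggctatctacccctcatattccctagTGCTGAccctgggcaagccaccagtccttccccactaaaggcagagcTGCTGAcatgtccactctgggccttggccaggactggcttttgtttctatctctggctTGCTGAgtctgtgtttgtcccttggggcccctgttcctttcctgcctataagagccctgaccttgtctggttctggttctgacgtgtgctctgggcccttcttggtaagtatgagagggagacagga
Cryaa: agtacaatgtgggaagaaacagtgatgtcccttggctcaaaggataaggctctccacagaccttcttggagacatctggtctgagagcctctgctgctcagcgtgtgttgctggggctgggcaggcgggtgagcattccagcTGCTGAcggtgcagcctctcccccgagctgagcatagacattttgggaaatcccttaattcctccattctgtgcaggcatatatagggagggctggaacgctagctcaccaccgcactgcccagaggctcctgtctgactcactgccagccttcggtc
Bfsp1: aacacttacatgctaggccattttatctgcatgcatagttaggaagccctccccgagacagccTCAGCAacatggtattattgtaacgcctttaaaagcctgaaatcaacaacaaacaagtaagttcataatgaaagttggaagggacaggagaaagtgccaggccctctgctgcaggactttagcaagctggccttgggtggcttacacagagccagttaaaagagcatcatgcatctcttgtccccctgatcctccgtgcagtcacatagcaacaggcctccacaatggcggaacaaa
The windows are chr5:112255570-112255869 (plus strand), chr5:112252469-112252768 (minus strand), chr17:31677681-31677980 (plus strand) and chr2:143863124-143863423 (minus strand). Counting the start base as 0, the Crybb1 match to TGCTGA began at -84, behind AACAAT at -148 and ahead of TATAAA at -30. Cryba4 held TGCTGA 3 times, at -182, -135 and -77. Cryaa held it once, at -108, and Bfsp1 held the reverse complement once, at -187.

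All members were at trace levels. Over the 12 libraries they took 1735 reads, or 12.6 RPM, and 39.8% of those reads were on Bfsp1. Their summed share per library ran from 5.23 RPM (exact Clopper-Pearson 95% interval 3.97 to 6.75) in WT non-RGC library C to 18.8 (16.3 to 21.6) in WT RGC library C. These intervals and the limits for a count of 0 cover counting error only. Per kilobase of exon, the mean normalized reads in RGCs were highest for Crybb1 (37.3), followed by Bfsp1 (29.0), Cryba4 (23.4), Cryab (13.7) and Crybb3 (11.7), with Cryaa at 3.25, Cryba1 at 2.35, Crygs at 2.07, Cryba2 at 0.876 and Crybb2 at 0.156. In non-RGCs Bfsp1 led (18.1 per kilobase), ahead of Cryab (14.5), Crybb3 (10.1) and Crybb1 (4.03). The libraries of neighbours in both orders overlapped. The plot of all members by library shows which of them varied between fractions and which between libraries.

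**Figure D1:**
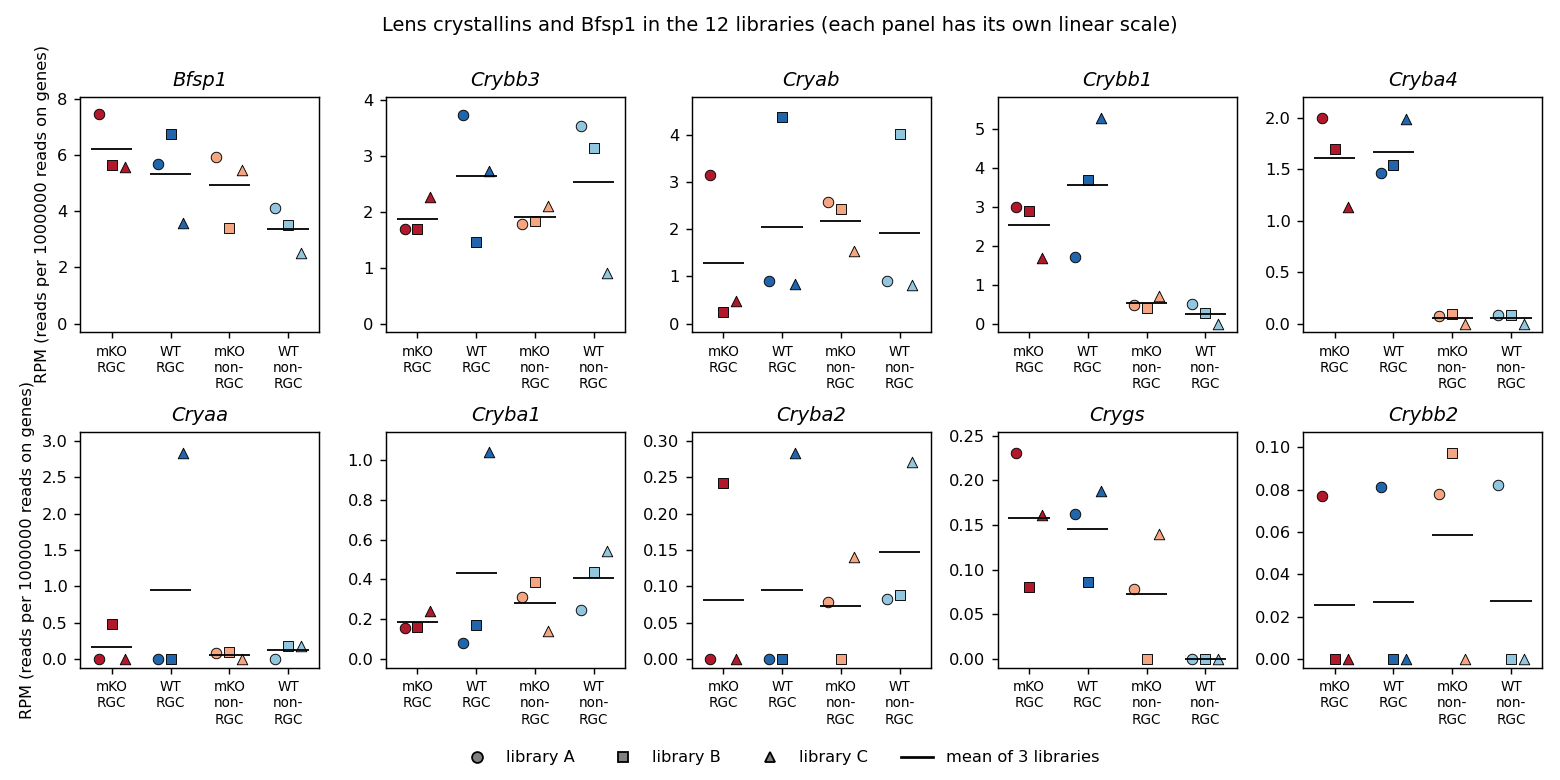
The y axis gives RPM (reads per 1000000 reads on genes; linear, a separate scale for each gene) of the 10 genes in the 4 groups on the x axis; each symbol is 1 library (circle A, square B, triangle C) and each bar is the mean of 3 libraries. Crybb1 and Cryba4 were above all non-RGC libraries in every RGC library, Cryaa peaked at 2.83 in WT RGC library C, and Cryab was split within groups.

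Bfsp1 (ENSMUSG00000027420, GRCm38 chr2:143826528-143863173, minus strand) was detected in all 12 libraries. In RGCs it had 97, 70 and 69 reads in mKO libraries A to C and 70, 79 and 38 in WT. In non-RGCs it had 76, 35 and 39 reads in mKO and 50, 40 and 28 in WT. The genotypes overlapped in both fractions, and the lowest library of each WT group was library C. In normalized reads the means were 71.4 ± 11.5 (SD, n = 3) in mKO RGCs and 67.0 ± 20.99 in WT RGCs, a change of 0.13 on the log2 scale (95% interval -0.51 to 0.77, limma adjusted p = 0.744). In non-RGCs the change was 0.35 (-0.36 to 1.07, limma adjusted p = 0.492). Without WT RGC library C the estimate in RGCs was -0.14. Bfsp2, which encodes phakinin, the partner of filensin in the beaded filament, had 4 to 14 reads in the RGC libraries and 13 to 28 in the non-RGC libraries.

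Cryaa (ENSMUSG00000024041, chr17:31677807-31681733, plus strand), the alpha-crystallin found mainly in the lens, had 0, 6 and 0 reads in mKO RGC libraries A to C and 0, 0 and 30 in WT RGCs. In non-RGCs it had 1, 1 and 0 reads in mKO and 0, 2 and 2 in WT. A single library, WT RGC C, thus held 30 of its 42 reads, and 6 of 12 libraries held none. Cryaa passed the filter on low values (a mean of 5 normalized reads over the 6 libraries of a table) only through that library. Its change in RGCs was -0.82 (SE 1.499, limma adjusted p = 0.702), and without WT RGC library C it was 0.90. An antisense gene that overlaps the whole of Cryaa was not analysed here, and the library kit did not mark strand, so that reads of the 2 genes cannot be told apart.

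Cryba2 and the gamma-crystallins Cryga to Crygf, grouped with Cryaa after their values were seen, together had most of their RGC reads in the libraries that held the reads of Cryaa. Cryba2 (ENSMUSG00000006546, chr1:74889934-74893143), an acidic beta-crystallin, had 0, 3 and 0 reads in mKO RGCs and 0, 0 and 3 in WT RGCs. Its non-RGC libraries had 1, 0 and 1 reads in mKO and 1, 1 and 3 in WT. The gamma-crystallins Cryga to Crygf, which fill the lens core, are close copies of each other, so that their counts are uncertain as to which gene a read came from. Together with Cryaa and Cryba2 they had 48 reads in WT RGC library C, with reads on 8 of 8 genes, and 20 reads in mKO RGC library B, with reads on 5 of 8. The other 4 RGC libraries had 0 or 1 read on these 8 genes, and the non-RGC libraries had 1 to 8. Each genotype thus had 1 RGC library with reads of several of these 8 genes. Other crystallins did not share this pattern: Crygs, Cryba1 and the gamma-crystallin Crygn had reads in all 6 RGC libraries, Crygn with the most (12) in WT library B, and the RGC reads of Crybb2 were in library A of each genotype. The gamma-crystallin Crygs (ENSMUSG00000033501, chr16:22805203-22811577) had 3, 1 and 2 reads in mKO RGCs, 2, 1 and 2 in WT RGCs, 1, 0 and 1 in mKO non-RGCs and 0 in each of the 3 WT non-RGC libraries. At these counts a difference between genotypes was not detectable for Crygs.

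**Figure D2:**
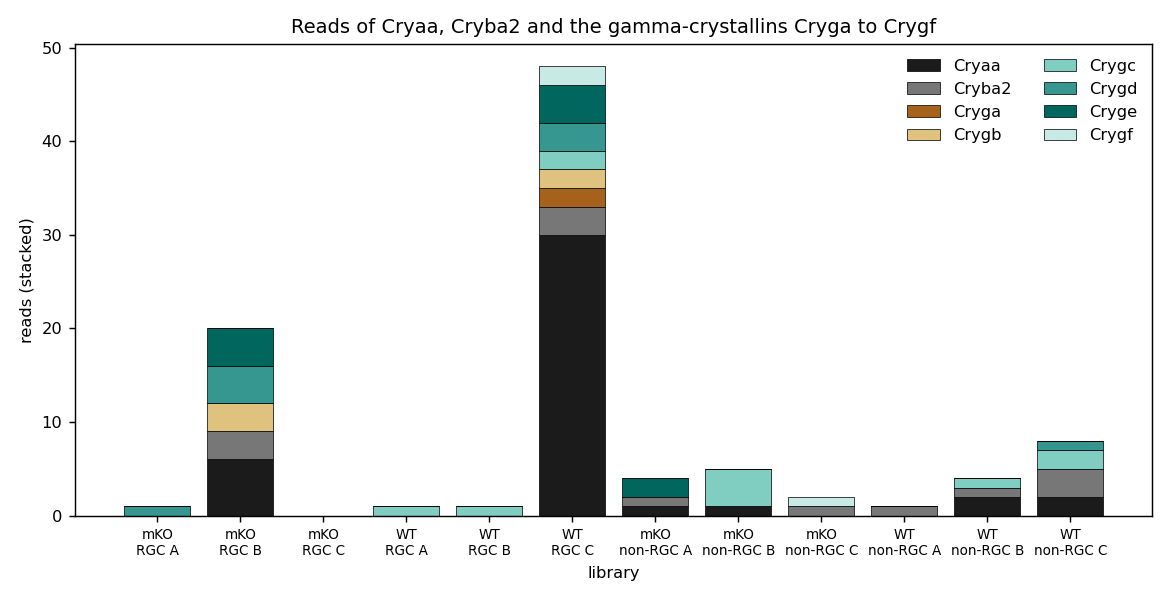
Reads (linear y axis, stacked by gene) of Cryaa, Cryba2 and the gamma-crystallins Cryga to Crygf in each of the 12 libraries on the x axis. WT RGC library C reached 48 reads and mKO RGC library B 20, and the other libraries held 0 to 8.

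Lens markers that are no members were also highest in WT library C among RGCs, with a smaller gap. Over 13 such markers the sum was 57 reads (5.38 RPM) in WT RGC library C, 43 (3.46 RPM) in mKO RGC library B and 21 to 40 (1.70 to 3.23 RPM) in the other RGC libraries, and it was 32 to 95 in non-RGCs, mostly on Birc7 and Bfsp2. Crygb, Crygc and Crygd are among these 13 and also among the genes grouped above. Without them WT RGC library C had 50 reads, beside 20 and 21 in the other WT RGC libraries. Library B of mKO RGCs then had 36, beside 35 and 40 in the other mKO RGC libraries. Its lead thus rested on Crygb and Crygd, since Crygc had 0 reads in mKO RGCs. Birc7, an inhibitor of apoptosis known from the lens, had 13, 16 and 15 reads in mKO RGCs and 7, 11 and 24 in WT RGCs. Lim2, a membrane protein of lens fibres, had 0, 2 and 1 reads in mKO RGCs and 0, 0 and 4 in WT RGCs, so that both peaked in WT RGC library C. Mip, the main membrane protein of lens fibres, had 7, 2 and 1 reads in mKO RGCs and 0, 0 and 3 in WT RGCs. Foxe3, a factor of the lens epithelium, was at 0 in all 12 libraries, and Dnase2b, the nuclease that clears fibre cell nuclei, had 1 read in all. The part of lens cells in the reads of Cryaa and Cryba2 was not tested.

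Cryab (ENSMUSG00000032060, chr9:50751325-50756636, plus strand), the alpha-crystallin expressed in many tissues, had 41, 3 and 6 reads in mKO RGC libraries A to C and 11, 51 and 9 in WT RGCs. In non-RGCs it had 33, 25 and 11 reads in mKO and 11, 46 and 9 in WT. In normalized reads the highest library was 12.9-fold above the lowest in mKO RGCs and 5.27-fold in WT RGCs, so that the spread within a genotype was larger than the difference between genotypes. The means were 14.7 ± 18.3 (SD, n = 3) in mKO RGCs and 25.7 ± 25.7 in WT RGCs, a change of -1.03 on the log2 scale (95% interval -3.29 to 1.22, limma adjusted p = 0.440). This value rested on single libraries: it was -1.99 without mKO RGC library A (limma adjusted p = 0.121), -0.35 without mKO RGC library B and -0.28 without WT RGC library B. In non-RGCs the change was 0.36 (-0.89 to 1.61, limma adjusted p = 0.704), and it was -0.0076 without WT non-RGC library C. The difference between both changes was -1.39 (-3.95 to 1.17, limma adjusted p = 0.681).

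The libraries with the most Cryab in RGCs also held the most fibrillar collagen reads. Normalized reads were summed over Col1a1, Col1a2, Col3a1, Col5a1 and Col5a2, a list chosen after values were seen. The sum was 7871 in mKO RGC library A and 18668 in WT RGC library B. It was 883 to 5986 in the other 4 RGC libraries, with 5986 in WT library A beside 11 Cryab reads. In WT non-RGCs the sum was 7964 in library B, the one with 46 Cryab reads, and 1120 and 1375 in the others. In mKO non-RGCs library A had 33 Cryab reads beside 982 normalized collagen reads, so that Cryab was not tied to these genes in every library. The part of connective tissue cells was not tested. Without WT RGC library B and mKO RGC library A the change of Cryab in RGCs was -1.24 (limma adjusted p = 0.159). Cryab overlaps Hspb2, a small heat shock gene on the opposite strand, over 1030 bases. Hspb2 had 15 reads in all 12 libraries, 7 of them in WT RGC library B.

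Among the acidic beta-crystallins, Cryba4 (ENSMUSG00000066975, chr5:112246493-112252518, minus strand) was found almost only in the RGC fraction. It had 26, 21 and 14 reads in mKO RGC libraries A to C and 18, 18 and 21 in WT RGCs. In non-RGCs it had 1, 1 and 0 reads in mKO and 1, 1 and 0 in WT. The normalized means were 18.4 ± 4.83 (SD, n = 3) in mKO RGCs and 20.8 ± 3.31 in WT RGCs, a change of -0.19 (95% interval -0.88 to 0.50, limma adjusted p = 0.652). Cryba1 (ENSMUSG00000000724, chr11:77718615-77725283, minus strand) had 2, 2 and 3 reads in mKO RGCs, 1, 2 and 11 in WT RGCs, 4, 4 and 1 in mKO non-RGCs and 3, 5 and 6 in WT non-RGCs, with the highest count in WT RGC library C. The gene lies wholly inside Nufip2 on the opposite strand, which took 18872 reads, so that its few reads are uncertain.

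Among the basic beta-crystallins, Crybb1 (ENSMUSG00000029343, chr5:112255815-112269585, plus strand) had 39, 36 and 21 reads in mKO RGC libraries A to C and 21, 43 and 56 in WT RGCs. In non-RGCs it had 6, 4 and 5 reads in mKO and 6, 3 and 0 in WT. The genotypes overlapped in both fractions. In RGCs the normalized means were 29.0 ± 8.01 (SD, n = 3) in mKO and 44.4 ± 22.1 in WT, a change of -0.50 (95% interval -1.53 to 0.53, limma adjusted p = 0.411). It was -0.95 without WT RGC library A (limma adjusted p = 0.0854), -0.26 without mKO RGC library C and -0.16 without WT RGC library C. Crybb3 (ENSMUSG00000029352, chr5:113075839-113081584, minus strand) had 22, 21 and 28 reads in mKO RGCs and 46, 17 and 29 in WT RGCs. In non-RGCs it had 23, 19 and 15 reads in mKO and 43, 36 and 10 in WT. In both fractions the 3 mKO libraries lay close together (within 1.37-fold and 1.195-fold in normalized reads), inside the wider range of WT (2.53-fold and 3.72-fold). The change was -0.51 in RGCs (-1.37 to 0.35, limma adjusted p = 0.320) and -0.34 in non-RGCs (-1.41 to 0.72, limma adjusted p = 0.666). In RGCs it was -0.86 without WT library B (limma adjusted p = 0.0761) and -0.22 without WT library A. In non-RGCs it was -0.92 without WT library C (limma adjusted p = 0.0745), -0.094 without WT library B and -0.018 without WT library A. Crybb2 (ENSMUSG00000042240, chr5:113058258-113070117), the main beta-crystallin of the adult lens, had 0 or 1 read in each of the 12 libraries. Its start lies 5722 bases from that of Crybb3.

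Cryba4 and Crybb1 stood apart between fractions. Crybb1 averaged 3.04 RPM in RGC libraries and 0.385 in non-RGC libraries, a ratio of 7.90, and Cryba4 averaged 1.63 and 0.0575, a ratio of 28.4 that rests on 4 reads in all non-RGC libraries. For both genes every RGC library was above every non-RGC library, which was also true of 17.5% of 17474 genes. The tables were normalized separately, so this is a comparison of levels with no test, and in bulk samples more cells of a type cannot be told from more RNA per cell. By contrast the ratio was 1.39 for Bfsp1, 1.02 for Crybb3 and 0.813 for Cryab, with libraries that overlapped between fractions, against a median ratio of 0.905 over all 17474 genes. The starts of Cryba4 and Crybb1 lie 3297 bases apart on opposite strands. Tpst2, the next gene beyond Crybb1, had 28.1 RPM in RGCs and 37.0 in non-RGCs, and Miat, beyond Cryba4, had 382 and 416.

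The fractions also differed in the level of microglia markers. A list of 10 microglia markers (C1qa, C1qb, C1qc, Csf1r, Cx3cr1, Aif1, Trem2, Tyrobp, P2ry12 and Fcrls), chosen after values were seen, was 9.94- to 18.0-fold higher in the RGC fraction in mean RPM, with a median of 14.6. Their summed level was 157 to 385 RPM in RGC libraries and 1.71 to 31.0 in non-RGC libraries. In WT non-RGC library C, the lowest, 5 of the 10 markers were at 0, and so were Crybb1 and Cryba4. In RGCs WT library C was highest in the markers and in both summed beta-crystallins, and mKO library C was lowest. For each 100 marker reads, Crybb1 and Cryba4 together had 1.26 to 1.89 reads in the RGC libraries and 0 to 4.35 in the non-RGC libraries. RGC markers were higher in the same fraction, and the part of microglia in Crybb1 and Cryba4 was not tested.

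**Figure D3:**
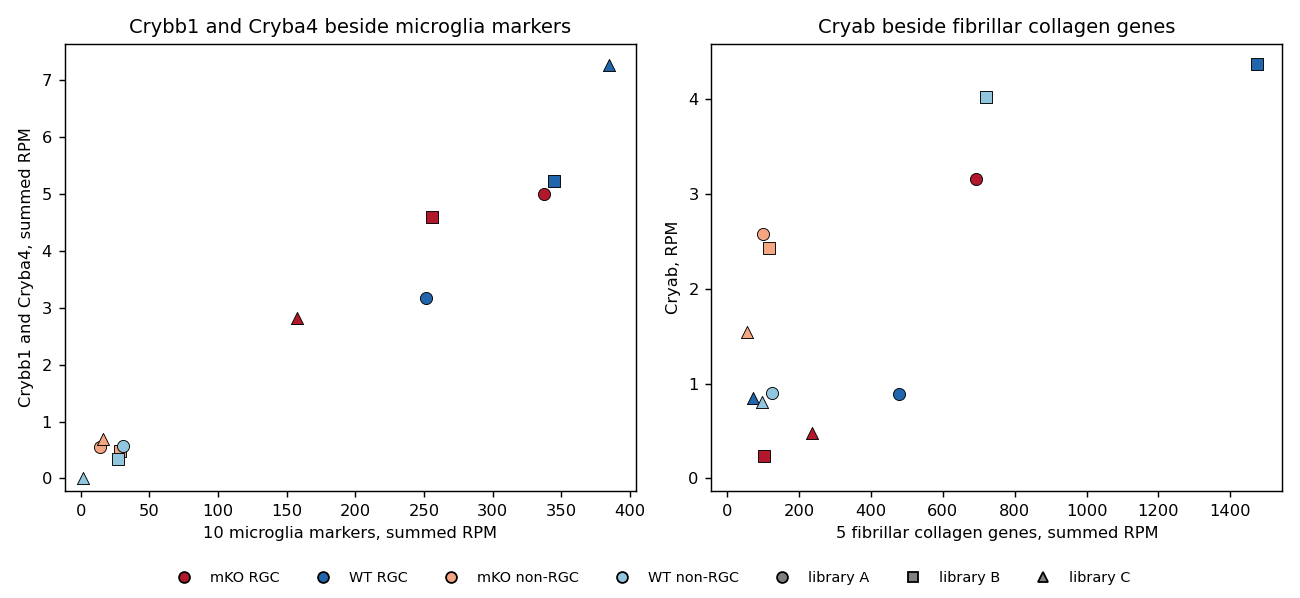
Left, summed RPM of Crybb1 and Cryba4 (y axis) against those of 10 microglia markers (x axis); right, RPM of Cryab (y axis) against those of 5 fibrillar collagen genes (x axis). Each symbol is 1 library (color for the group, shape for the letter), all axes are linear, and WT RGC library C lies at the top right on the left while WT RGC library B does so on the right.

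Between mKO and WT, no member was called in either fraction. In RGCs 6 members passed the filter (Cryaa, Cryab, Cryba4, Crybb1, Crybb3 and Bfsp1) and 0 were called by limma at an adjusted p under 0.05, against 35% of 17066 genes tested, 15.2% higher and 19.8% lower. In non-RGCs 3 passed (Cryab, Crybb3 and Bfsp1) and 0 were called, against 9.96% of 16241 genes, 4.02% higher and 5.94% lower. The count at an unadjusted p under 0.05 was also 0 in both, as it was with limma voom weights, and 0 of the 10 were called with no filter. No member had libraries of one genotype all above those of the other, which was true of 24.3% (mKO above) and 26.7% (mKO below) of genes in RGCs and of 17.4% and 18.3% in non-RGCs. The change also did not pass the test of a difference between fractions for Cryab, Crybb3 or Bfsp1 (limma adjusted p = 0.681, 0.936 and 0.857), where 0.101% of 15833 genes were called. The median change was -0.50 over the 6 members in RGCs, beside 0.011 over all genes, and 0.35 over the 3 in non-RGCs, beside -0.013. The 6 include Cryaa, which passed the filter only through WT RGC library C, and a shift shared by the members was not tested. The intervals were wide: for Bfsp1, the best counted, the RGC interval covers a fall to 0.701-fold and a rise to 1.71-fold, and for Cryab 0.102-fold to 2.33-fold.

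**Figure D4:**
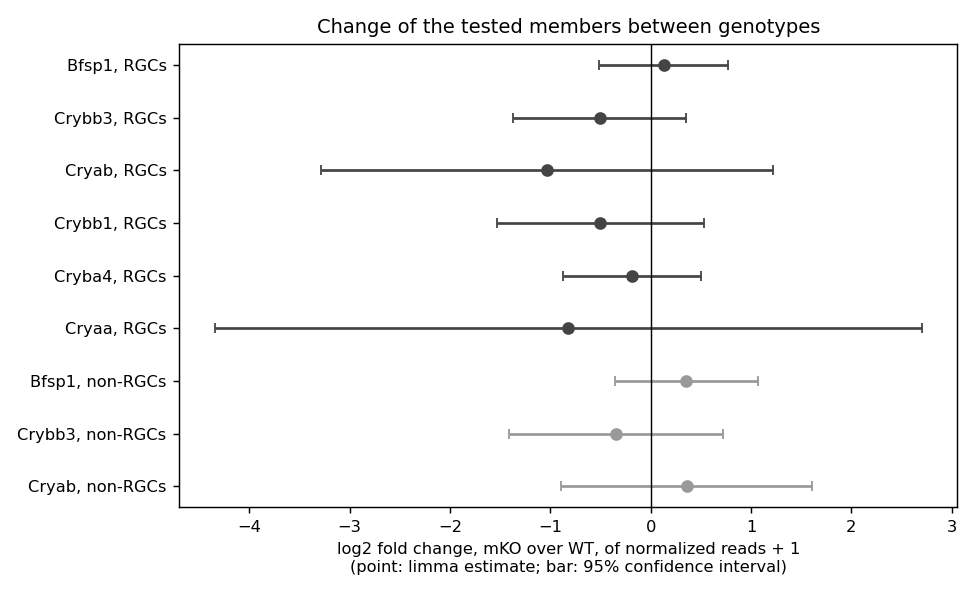
Log2 fold change of mKO over WT on normalized reads + 1 (x axis) for each member that passed the filter, by fraction (y axis); points are limma estimates and bars 95% confidence intervals. All 9 intervals cross 0, from Bfsp1 in RGCs (-0.51 to 0.77) to Cryaa in RGCs (-4.35 to 2.70).

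Removing the trend with exon GC content moved the estimates of several members. The members' exons had 42.7% to 61.8% GC, and 9 of 10 were above the median of 49.9% for genes tested in RGCs. With the GC trend of each library removed, the change of Crybb1 in RGCs went from -0.50 to 0.057 and that of Cryba4 from -0.19 to 0.22. In the same fit the change of Crybb3 in RGCs went from -0.51 to -0.24, and that of Bfsp1 from 0.13 to 0.52 in RGCs and from 0.35 to 0.65 in non-RGCs. With the trend in reads per base removed as well, Crybb1 in RGCs stood at -0.13. No member was called in these fits, while the number of all genes called in RGCs fell with GC trends removed from 5975 to 2278.

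Other genes of the lens fibre programme were not called either. Of 7 gamma-crystallins only Crygn, an outlying member of the family, passed the filter, with 3 to 12 reads per RGC library, and it was not called in either fraction (limma adjusted p = 0.204 in RGCs and 0.890 in non-RGCs). Of 17 fibre cell genes 9 were tested in RGCs and 6 in non-RGCs, and 0 were called, with 1 (Sox1, a fibre cell transcription factor) and 0 at an unadjusted p under 0.05. Their median changes were 0.055 and 0.072. Prox1 and Maf, factors that act in lens fibres and also in retinal neurons, were well counted (96.6 and 57.6 RPM in RGCs, 200.1 and 98.6 in non-RGCs), and their changes were 0.20 and -0.079 in RGCs (limma adjusted p = 0.243 and 0.701). Hsf4, the heat shock factor of the lens, had 19 to 26 reads in every RGC library and 0 to 8 in non-RGC libraries. Among the fibre cell genes, every RGC library was above every non-RGC library for Hsf4 and Tdrd7, and below for Bfsp2 and Prox1. The same was true of 17.5% (above) and 14.5% (below) of 17474 genes. The median ratio of mean RPM in RGCs to non-RGCs was 0.584 over 9 fibre cell genes. Between genotypes the change of Hsf4 in RGCs was -0.070 (limma adjusted p = 0.852).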

How the data were processed

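RNA of 12 libraries (4 groups of 3) was sequenced as single reads. The authors aligned reads to mm10 with STAR (2.3.1z4 in the submitters' processing notes), removed duplicates per the labels, counted reads per gene with featureCounts and normalized within each table with DESeq. The deposited signal is the mean of 3 size-factor-normalized counts per genotype. The authors' fold and p columns were not used.

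Whole reads per library were recovered from the digits of these means: in each group 100% of genes with reads had 1 combination of 3 whole numbers that matched the mean to about its last printed digit; steps shifted on purpose gave 0, 1, 0 and 0 of 2564, 2174, 2335 and 2153 genes. Reads were divided by size factors and tested as log2(value + 1) with limma 3.58.1 in R 4.3.3, for genes with a mean of at least 5 over the 6 libraries of a table, with Benjamini-Hochberg adjustment over all genes; 95% intervals are limma's. The difference between fractions was a contrast over all 12 libraries. On simulated data with 200 changed genes, the RGC fit found 97 of those raised 2-fold and 95 of those lowered 2-fold. It made 14 false calls. The non-RGC fit found 98 and 97, with 14 false calls. The changed genes were drawn only from well counted genes, at a level that among the members only Bfsp1 in RGCs (69.2 normalized reads) reached. The spread between simulated libraries was set alike for all genes, so these shares do not measure power for the members. Locations and exon GC are from GENCODE on GRCm38, and promoters from RefSeq on GRCm38.p6.

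The members and all gene lists were chosen with earlier results of these data known. All 10 members are named; of other lens, small heat shock and enzyme-named crystallin genes, those called are named, and a few others named here were chosen after their values were seen. The 10 genes most like the summed members, the nearest tested neighbours, Ezh2 and 4 promoter motifs complete the rule. Alternatives were another pseudocount, 2 other filters, total-read scaling, re-centring, removal of GC trends, limma voom and leaving out libraries.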

Additional observations from a re-analysis of the deposited data

How the results depend on the processing

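Over 197 refits of members, 187 kept direction and stayed uncalled and 10 changed sign; the lowest adjusted p was 0.0745. Sign changes were Cryba4 in RGCs to 0.22 with GC trends removed and 0.073 with GC and reads-per-base trends removed, Crybb1 to 0.057 with GC trends removed, and Bfsp1 to -0.072 without WT RGC C and mKO RGC B. Leaving out single libraries gave ranges that crossed 0 for Cryaa (-1.72 to 0.90), Cryba4 (-0.35 to 0.024) and Bfsp1 (-0.14 to 0.33) in RGCs, for Cryab in non-RGCs (-0.0076 to 1.06) and for the difference between fractions of Crybb3 (-0.52 to 0.41). For Cryaa the fit without WT RGC C and mKO RGC B gave a change of 0 and so no direction. The other RGC libraries held 0 reads of Cryaa. Ezh2 in RGCs was -0.14 and -0.046 under the GC settings and in non-RGCs -0.022 under the first. Without 1 library it was 0.00069 to 0.25 in RGCs, called only without WT RGC C (and at 0.22 without WT RGC C and mKO RGC B), and its difference between fractions was -0.14 to 0.12.

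Counts of all genes called moved with the setting; the causes were not tested. In RGCs 5975 became 2278 with GC trends removed, 947 with reads per base as well, 3638 to 8182 without 1 library and 1660 without WT RGC B and mKO RGC A. In non-RGCs 1617 became 222 and 185 under the GC settings and 139 to 1602 without 1 library, lowest without mKO non-RGC B. For the difference between fractions 16 became 27 with total-read scaling, 3 with both trends removed and 7 to 247 without 1 library, highest without mKO non-RGC A. Total-read scaling shifted the median change by 0.12 in RGCs and 0.17 in non-RGCs and turned the share of calls that were higher from 43.5% to 63.4% in RGCs. Of the 10 genes most like the summed members, 5 were also among the 10 by Spearman correlation. Fits without both of a pair of libraries were chosen after seeing the data. No paired analysis was possible because the recovered libraries carry no replicate numbers. Depth limits the members: 4 of 10 in RGCs and 7 of 10 in non-RGCs were too low to test.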

Other observations

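Genes with Hspb (small heat shock) symbols were together better counted than the members. Of 7 genes, 4 were tested in each fraction. In RGCs 1 of 4 fell, beside 19.8% of all genes tested: Hspb6 (log2 change -0.34, SE 0.108, limma adjusted p = 0.0437), a cytosolic small heat shock protein, from a range of 153 to 196 reads per library. The other 3 were not called in RGCs: Hspb1 at -0.62, Hspb8 at 0.51 and Hspb11 at 0.22 (limma adjusted p = 0.172, 0.109 and 0.212). In non-RGCs 0 of 4 were called, with 1 (Hspb8) at an unadjusted p under 0.05, and Hspb8 and Hspb1 had the estimates farthest from 0 (1.68 and 1.60, limma adjusted p = 0.0965 and 0.196). Hspb1 ran from 8 to 143 reads among the non-RGC libraries.

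Of 4 genes with crystallin symbols that encode enzymes or hormone-binding proteins, 4 were tested in each fraction. Crym, which binds thyroid hormone and was first named mu-crystallin, fell in RGCs (-0.63, SE 0.148, limma adjusted p = 0.0151) and stood at -0.31 in non-RGCs (limma adjusted p = 0.258). Cryz, Cryzl1 and Cryl1 were not called in RGCs (0.18, 0.24 and -0.096, limma adjusted p = 0.236, 0.0676 and 0.596). Photoreceptor markers were called lower in 4 of 7 genes in mKO RGCs (Neurod1, Crx, Otx2 and Nrl). Progenitor and Müller markers were lower in 5 of 9 (Glul, Notch1, Hes1, Hes5 and Ccnd1). Amacrine markers were lower in 4 of 7 and RGC markers in 10 of 12, beside 19.8% of all genes tested. The part of any of these cell types in the fall of Crym was not tested. Thrb, also on the photoreceptor list, stood at 0.57 (limma adjusted p = 0.0902).

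The genes most like the summed members, by Pearson correlation over 12 libraries of log2 levels centred within each table and among 15551 genes, were Dock8 (r = 0.94), C5ar1 (0.92), Vtn (0.90), H2-Eb1 (0.90), Itgb2 (0.89), Dnaja3 (0.88), Fbxo46 (0.88), Arhgap30 (0.87), Dock2 (0.87) and Sh3tc1 (0.87). Several are genes of immune cells, such as C5ar1, the receptor for complement C5a, and Itgb2, a leukocyte integrin. All points share libraries and depth. Taken one by one, Cryab was most like Cav1, Aqp1 and Kcnj8 (0.93, 0.93 and 0.91), and Cryba4 was most like Ctf1, Fcgr1 and Ighm (0.95, 0.94 and 0.93). Crybb1 was most like Tnni1 (0.94), Crybb3 like Spef1 (0.90) and Bfsp1 like Serpinb1b (0.88).

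Of 17 neighbours of members that are no members, 7 (41.2%) were called in RGCs, beside 35% of all genes tested. Dstn, next to Bfsp1, fell in RGCs (-0.58, limma adjusted p = 0.000672). Cdk5r2, next to Cryba2, fell (-0.81, limma adjusted p = 0.000679), and Taok1, next to Cryba1, rose (0.52, limma adjusted p = 0.00395). Tpst2, next to Crybb1, fell (-0.56, limma adjusted p = 0.0171), beside -0.50 for Crybb1, which was not called. Nufip2 and 1110032A03Rik, next to Cryba1 and Cryab, rose (0.27 and 0.29, limma adjusted p = 0.0206 and 0.0368), and Sik1, next to Cryaa, fell (-0.36, limma adjusted p = 0.0318).

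Among markers of tissues around the retina, most of those tested for pigment cells and blood were called. None were called for cornea, endothelium or the few lens markers that could be tested. Beside the counts that follow, 15.2% of all genes were called higher and 19.8% lower in mKO RGCs, and 4.02% higher and 5.94% lower in mKO non-RGCs. Of 13 lens markers 3 were tested in RGCs and 2 in non-RGCs, with 0 called. Pigment cell markers rose in 4 of 7 genes in mKO RGCs (Tyr, Pmel, Dct and Mlana) and 6 of 7 in mKO non-RGCs (these and Tyrp1 and Ttr), and blood markers, which are globin genes and Alas2, rose in 5 of 5 in both. Cornea and surface epithelium markers were called in 0 of 3 in each fraction. Microglia markers were called in 0 of 10 in RGCs (5 at an unadjusted p under 0.05: C1qa, C1qb, C1qc, Csf1r and Trem2) and 0 of 9 in non-RGCs. Fibrillar collagens were called in 0 of 5 in RGCs and fell in 1 of 5 in non-RGCs (Col5a1). Endothelial markers were called in 0 of 4 in each fraction. Amacrine markers fell in 4 of 7 in RGCs (Tfap2a, Tfap2b, Slc6a9 and Slc32a1) and 2 of 7 in non-RGCs (Slc6a9 and Tfap2a), while Gad2 stood at 0.33 in RGCs (limma adjusted p = 0.109). Of the astrocyte markers Pax2 alone fell, 1 of 3 tested in RGCs and 1 of 4 in non-RGCs, and photoreceptor markers also fell in 4 of 7 non-RGC genes (Crx, Prdm1, Otx2 and Nrl). RGC markers fell in 10 of 12 in mKO RGCs and rose in 8 of 12 in mKO non-RGCs.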
